A study of Mus musculus with 30 samples.

Results

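The 6 libraries described here came from wild-type mouse dendritic cells that had been given either apoptotic Jurkat cells or soluble ovalbumin (OVA) for 4 h, with 3 libraries on each side, out of 30 libraries in the series. They were chosen by their labels alone, so every gene of the deposited count table could be compared, and 14808 of its 25611 rows held enough reads to be tested. The comparison asks how dendritic cells that have met material borne by dying cells differ, at the later time studied, from dendritic cells that have met a dissolved protein. Dendritic cells were grown from the bone marrow of wild-type (WT) mice with 200 ng/ml of FLT3L and used at day 6 or 7; this growth factor yields a mixed culture of plasmacytoid and conventional dendritic cells. Jurkat is a human T-cell leukaemia line. The labels give neither the dose of OVA nor the number of Jurkat cells, and they do not say whether the Jurkat cells carried OVA. Other groups entered only as reference points: WT cells left untreated, WT cells with the same agents for 30 min, and cells of mice with a knockout (KO) of Rubcn with the same agents for 4 h, each with 3 libraries. No time is given in the labels of the untreated cells. Rubcn encodes Rubicon, a protein needed for LC3-associated phagocytosis, in which the autophagy protein LC3 is joined to the membrane of a phagosome.

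Dendritic cells take up dying cells through receptors for phosphatidylserine and through lectins, digest them in phagosomes, and load peptides from them on MHC class I (cross-presentation) and class II molecules. Receptors for nucleic acids in endosomes and in the cytosol can signal through IRF3, IRF7 and NF-kB. Interferons then act back on the cells through STAT proteins and IRF9, which bind the interferon-stimulated response element (ISRE) in promoters of interferon-stimulated genes. Maturation raises co-stimulatory molecules, cytokines and the lymph-node homing receptor CCR7, and lowers functions of the immature cell.

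Total counts were 41448924 to 46913990 with Jurkat cells and 42397453 to 51642601 with OVA. The 50 rows with most reads took 15.5 to 15.8% of counts with Jurkat cells against 12.6 to 12.8% with OVA, and the factors that scale libraries to each other (TMM) were 0.765 to 0.813 against 1.03 to 1.05. Levels below are counts per 1000000 counts of these scaled library sizes (CPM). Scaling to total counts alone moved the median log2 fold change of all genes from -0.037 to -0.42 and the share of higher calls from 48.0% to 26.5%, so the direction of small differences depends on the scaling, and small rises are the ones that turn. Pearson correlations of log2 CPM were 0.994 to 0.997 between libraries of one treatment and 0.929 to 0.935 across treatments. The third OVA library stood apart from the other two on the third principal component (-2.26 against -15.6 and -16.5). The labels do not say whether the 3 libraries of a group came from separate mice. The p-values thus rest on the spread between libraries within groups, estimated over all 30 libraries, and may not reflect the spread between mice. In such bulk samples fewer cells of a type and less RNA per cell cannot be told apart.

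At an adjusted p (FDR) under 0.05 in edgeR's quasi-likelihood test, 11471 genes (77.5% of those tested) differed between Jurkat cells and OVA, 5508 of them (37.2%) higher and 5963 (40.3%) lower with Jurkat cells. With such a background, a list of genes stands out only by how many members share a direction and by size. The CPM of the 3 and 3 libraries did not overlap in 11556 genes (78%), so lack of overlap does not set a gene apart. At 2-fold or more, 2190 genes (14.8%) were higher and 1549 (10.5%) lower. At 4-fold or more, 1029 genes (6.95%) were higher and 301 (2.03%) lower. The genes that were 2-fold higher took 29.0% ± 0.887 (SD, n = 3) of all counts with Jurkat cells, against 10.4% ± 0.15 with OVA and 8.55% ± 0.104 in untreated cells. The rises thus filled a larger part of the libraries than the falls, whose 1549 genes took 1.71% ± 0.065 with Jurkat cells and 6.21% ± 0.0884 with OVA.

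**Figure D1:**
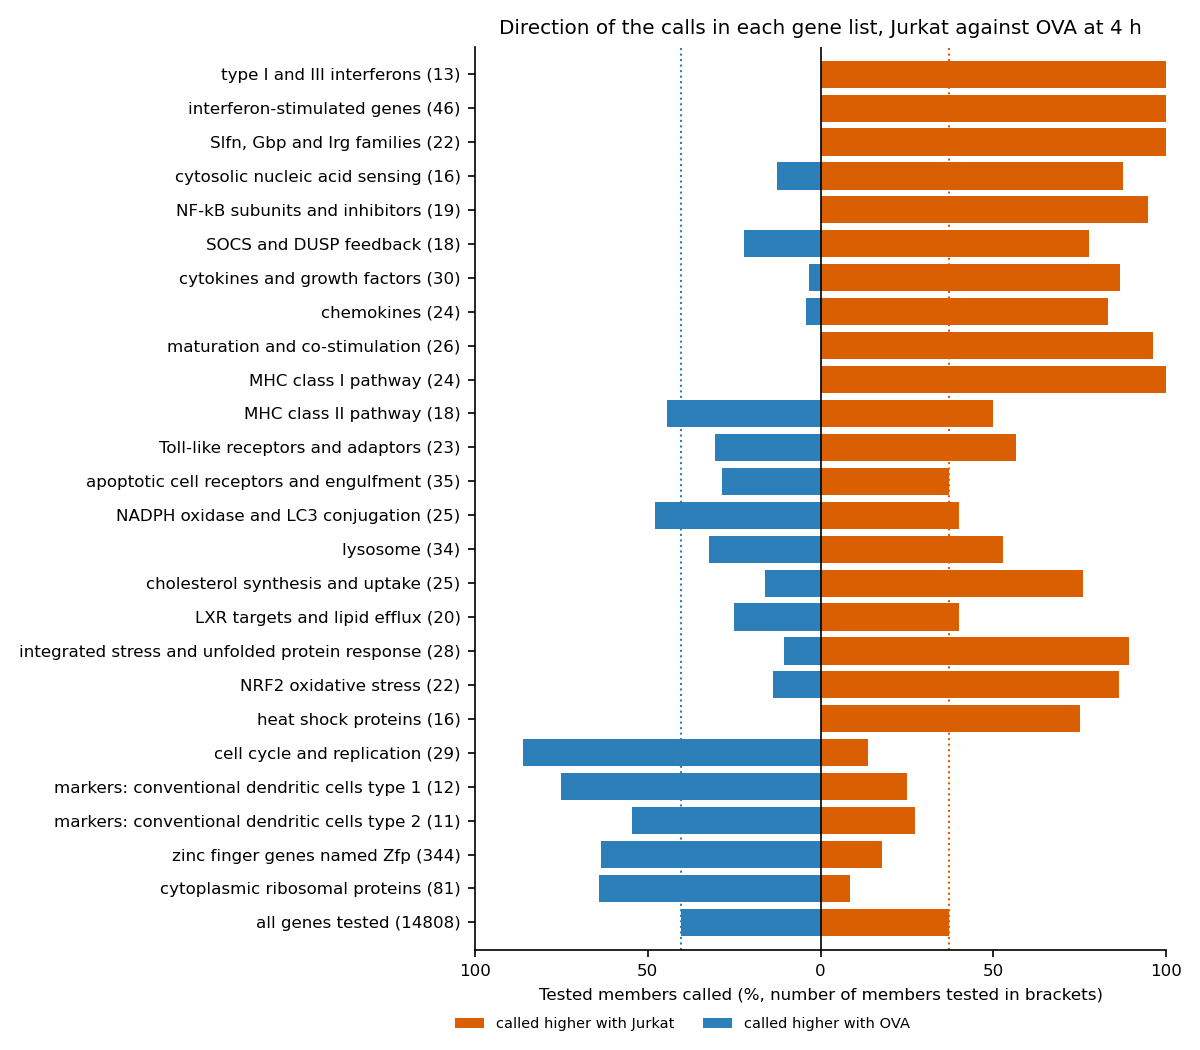
Share of each list's tested members called (FDR under 0.05) in wild-type cells at 4 h: bars to the right are members higher with Jurkat cells, bars to the left members higher with OVA, in percent, with the number tested in brackets. Dotted lines mark the shares over all genes tested, 37.2% higher and 40.3% lower, and the interferon, cytokine and maturation lists lie to the right while cell cycle, conventional dendritic cell and Zfp lists lie to the left.

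Promoters of some genes higher with Jurkat cells are printed first, to show matches to letter patterns of the factor families named above. The sequences are the 250 bases before the RefSeq start of each gene on the GRCm38.p6 build, read 5′ to 3′ on the strand of the gene. Capitals mark matches on either strand to an ISRE core (GAAA-NN-GAAA) or to a kB site (GGGA-NNNN-CC), a pattern of NF-kB sites, where N is any base. In Ifnb1 (interferon beta, chr4:88522795-88523044, minus strand) both matches are kB sites. Other GAAA letters in that window do not keep the fixed spacing of the ISRE core. Lack of a match does not show lack of a site. In Ifit1 (chr19:34640639-34640888, plus strand) both are ISRE cores. In Isg15 (chr4:156200819-156201068, minus strand) 3 overlapping ISRE cores form a single stretch. Cxcl10 (chr5:92348890-92349139, minus strand) holds an ISRE core followed by 2 kB sites. Cxcl1 (chr5:90890995-90891244, plus strand) holds 3 kB sites, 2 of them overlapping.
Ifnb1: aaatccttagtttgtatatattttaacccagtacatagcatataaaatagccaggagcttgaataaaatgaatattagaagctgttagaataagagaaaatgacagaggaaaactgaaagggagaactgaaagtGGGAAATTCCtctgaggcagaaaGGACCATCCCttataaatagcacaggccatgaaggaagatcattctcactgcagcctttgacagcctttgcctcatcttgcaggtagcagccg
Ifit1: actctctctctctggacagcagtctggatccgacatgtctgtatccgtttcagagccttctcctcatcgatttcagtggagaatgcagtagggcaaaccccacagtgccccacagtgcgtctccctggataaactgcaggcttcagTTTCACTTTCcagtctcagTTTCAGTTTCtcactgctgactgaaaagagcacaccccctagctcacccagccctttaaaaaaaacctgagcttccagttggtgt
Isg15: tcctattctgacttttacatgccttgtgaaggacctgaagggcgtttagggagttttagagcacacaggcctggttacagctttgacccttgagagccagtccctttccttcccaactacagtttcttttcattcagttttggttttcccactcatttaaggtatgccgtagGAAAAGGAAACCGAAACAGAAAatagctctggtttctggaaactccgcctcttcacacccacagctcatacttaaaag
Cxcl10: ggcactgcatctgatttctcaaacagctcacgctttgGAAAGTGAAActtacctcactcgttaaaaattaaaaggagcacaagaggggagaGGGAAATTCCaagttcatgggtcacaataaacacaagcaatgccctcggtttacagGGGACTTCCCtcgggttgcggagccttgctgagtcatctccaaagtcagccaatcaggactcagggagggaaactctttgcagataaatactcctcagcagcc
Cxcl1: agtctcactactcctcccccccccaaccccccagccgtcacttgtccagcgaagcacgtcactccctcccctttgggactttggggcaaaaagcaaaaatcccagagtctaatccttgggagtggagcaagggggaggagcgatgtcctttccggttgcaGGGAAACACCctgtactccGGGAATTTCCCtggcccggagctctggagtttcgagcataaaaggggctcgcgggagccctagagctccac

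Windows of 300 bases (250 before and 50 after the start) were available for 11595 of the genes tested, 14664 windows in all. An ISRE core was present in 3.26% of them and a kB site in 26.3%. Of the 41 windows of interferon-stimulated genes, 53.7% held an ISRE core, and of the 13 windows of interferon genes, 84.6%. Of those 13 interferon genes, 12 had no count with OVA and entered the test only through the Jurkat libraries. Interferon alpha genes are also near-identical copies, so their windows may not be independent and their share supports nothing by itself. Genes 4-fold higher at 4 h but not called higher with Jurkat cells at 30 min had an ISRE core in 13.9% of 567 windows, against 2.34% of 342 windows for genes already higher at 30 min and 1.96% of 306 windows for genes 4-fold lower. A kB site stood in 56.5% of 23 windows of NF-kB genes and 43.8% of 16 windows of chemokine genes. A C/EBP-ATF element (TGATGCAA), known from targets of ATF4, stood in 17.2% of 29 windows of integrated stress response genes and in 0.661% of all. These matches describe letters in the windows and do not show binding.

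**Figure D2:**
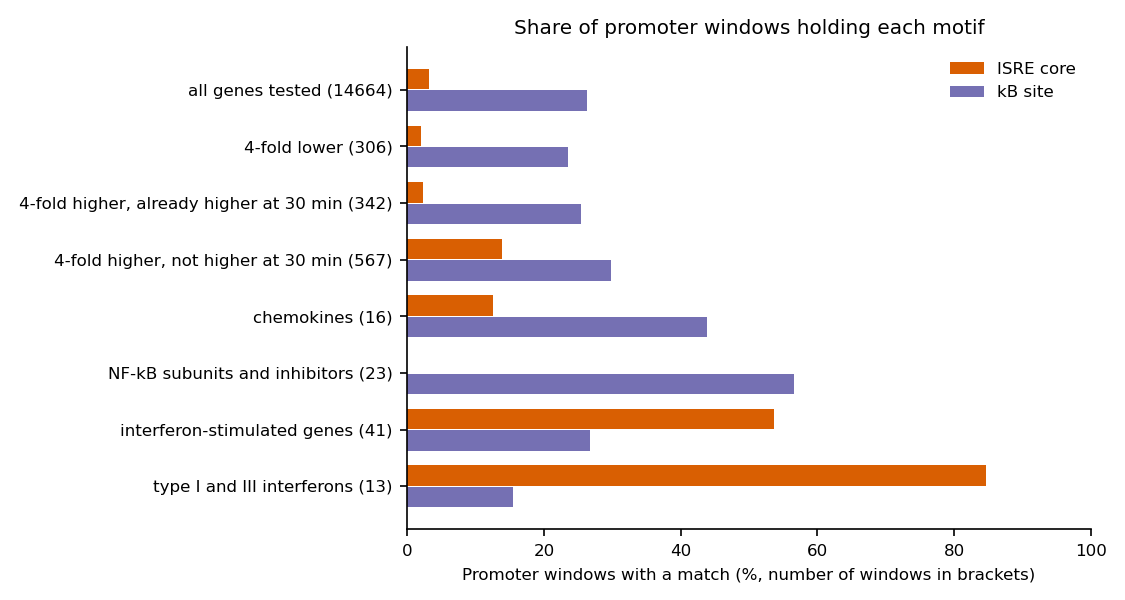
Percent of promoter windows (300 bases) with at least 1 match to an ISRE core or a kB site on either strand, for all genes tested and for groups of genes, with the number of windows in brackets. The ISRE core is in no window of the NF-kB genes and in 84.6% of those of interferon genes, and the kB site ranges from 15.4% in interferon genes to 56.5% in NF-kB genes. Interferon alpha genes are near-identical copies, so windows of interferon genes may not be independent.

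Interferon genes were detected almost solely with Jurkat cells. Ifnb1 (mm10 chr4:88522025-88522794) was at 9.68, 15.8 and 12.1 CPM with Jurkat cells, 0.137, 0.237 and 0.0741 CPM with OVA and 0 in the 3 untreated libraries. The lowest Jurkat library was above the highest OVA library, and the log2 fold change was 6.39 ± 0.33 (SE; FDR 3.42e-15). Ifna5 stood at 5.09, 9.66 and 6.37 CPM with Jurkat cells and had no count in any OVA library, which makes it at least 334-fold higher when 3 counts over the OVA group are taken as the floor. Ifna2 (4.67, 7.51 and 5.53 CPM) was at least 281-fold higher and Ifna4 (3.31, 6.0997 and 3.63 CPM) at least 207-fold higher by the same floor. The second Jurkat library held the highest level of each of these 4 genes. Ifnl2, an interferon lambda that acts mainly on epithelia, reached only 0.551, 1.11 and 0.721 CPM and was at least 37.6-fold higher. Of 20 interferon genes listed, 13 were tested and called higher; 12 of these had no count with OVA and entered the test only through the Jurkat libraries, so their number supports nothing by itself, and DESeq2 called 10 of the 13. The median log2 fold change of the 13 was 6.61 with those genes at their lower bound. Interferon alpha genes are near-identical copies, so how reads were shared among them is uncertain.

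Sensors and targets of interferon rose together. All 46 interferon-stimulated genes tested, of 47 listed, were higher with Jurkat cells (37.2% over all genes), 43 of them 2-fold or more, with a median log2 fold change of 3.0 (all genes, -0.037). Oasl1, a regulator of Irf7 translation, was at 1142, 1306 and 1242 CPM with Jurkat cells and 38.3, 36.03 and 29.8 CPM with OVA, a log2 fold change of 5.15 ± 0.35 (FDR 6.84e-14). Rsad2 (viperin, an antiviral enzyme) reached 2783, 3789 and 3113 CPM against 133, 126 and 103 CPM (4.74 ± 0.43, FDR 3.95e-11). Isg15, a ubiquitin-like modifier, was at 1095, 1364 and 1222 CPM against 74.8, 76.7 and 68.99 CPM (4.06 ± 0.30), and Ifit1, which binds foreign RNA ends, at 1172, 1501 and 1295 CPM against 87.5, 82.2 and 71.4 CPM (4.04 ± 0.36). In all 4 genes the groups were far apart, and the OVA level itself lay above that of untreated cells, where Rsad2 was at 11.3 ± 1.34 CPM and Isg15 at 20.96 ± 1.26 CPM (SD, n = 3). The smallest difference of the list was that of Irf9, the DNA-binding subunit of the interferon response complex, at 269 against 174 CPM. Its partner Stat2 (1367 against 386 CPM) was higher by 1.82 ± 0.068 on the log2 scale. Irf7, the factor that amplifies interferon alpha, was at 2297, 2828 and 2475 CPM against 249.5, 266 and 268 CPM (3.28 ± 0.16, FDR 2.23e-17), whereas Irf3, which starts the interferon response and is regulated mainly at the protein level, was lower (58.7 against 86.9 CPM, -0.57 ± 0.048). The Slfn, Gbp and Irg families, restriction factors and GTPases of cell-autonomous defence, had 22 of 22 tested members higher, 21 at 2-fold, with a median of 2.89.

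Cytosolic receptors for nucleic acids were mostly higher, and their adaptors split. Of 16 genes tested, 14 were higher and 2 lower, with a median of 1.30. Ifih1 (MDA5) was at 913 against 82.9 CPM and Ddx58 (RIG-I) at 534 against 73.1 CPM, both RNA sensors, with log2 fold changes of 3.46 ± 0.16 and 2.87 ± 0.13. Mavs, the mitochondrial adaptor of both, was lower in every library (17.8, 18.4 and 17.5 against 38.02, 37.4 and 37.98 CPM, -1.08 ± 0.055, FDR 6.54e-17). Tmem173 (STING), the adaptor of the DNA sensor cGAS, was higher by only 0.37 ± 0.043 (345 against 267 CPM), and this became -0.021 under scaling to total counts. Among Toll-like receptors and adaptors, 13 of 23 were higher and 7 lower (median 0.47), and under scaling to total counts 11 were higher and 9 lower (median 0.085). Endosomal Tlr9, a DNA receptor, rose from 169.7, 172 and 185 CPM with OVA to 459.9, 563 and 433 CPM with Jurkat cells (1.47 ± 0.08). Tlr7 (1.19 ± 0.087), which detects single-stranded RNA, and the adaptor Myd88 (1.51 ± 0.046) were also higher. Tlr3, a receptor for double-stranded RNA of type 1 conventional dendritic cells, was lower (49.3, 57.5 and 51.5 against 141, 136 and 133 CPM, -1.37 ± 0.063), as were Tlr11 (-1.55 ± 0.055) and Tlr12 (-1.51 ± 0.067), which detect profilin.

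NF-kB genes and inhibitors of signalling rose with the cytokines. In the NF-kB list 18 of 19 members were higher and 14 at 2-fold (median 1.65); only the kinase gene Chuk did not pass (137 against 137 CPM, FDR 0.941). Nfkbiz, an inducible nuclear IkB protein, went from 61.3, 59.97 and 53.9 CPM with OVA to 891, 1031 and 917 CPM with Jurkat cells (4.02 ± 0.10, FDR 2.13e-24). The brakes Tnfaip3 (A20; 1107 against 121 CPM, 3.19 ± 0.068) and Nfkbia (IkB alpha; 1141 against 209 CPM, 2.45 ± 0.053) rose as well. Of the SOCS and DUSP genes, which restrain cytokine receptors and MAP kinases, 14 of 18 were higher and 4 lower (median 1.93). Socs3 was at 354, 370.1 and 355 CPM against 29.2, 28.5 and 27.5 CPM (3.67 ± 0.086). Dusp6, a phosphatase of ERK, moved the other way, at 25.4, 27.1 and 26.01 against 69.3, 69.98 and 68.5 CPM (-1.41 ± 0.054, FDR 9.99e-20).

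Cytokine genes showed some of the widest gaps. Of 30 tested, 26 were higher (24 at 2-fold) and 1 lower, with a median of 2.61. Il6 (mm10 chr5:30013114-30019975) was at 126, 162 and 139 CPM with Jurkat cells, 1.35, 1.295 and 0.815 CPM with OVA and 0.244 ± 0.0524 CPM in untreated cells (6.97 ± 0.30, FDR 1.86e-18). Il12b (mm10 chr11:44400063-44414677), the p40 subunit shared by interleukins 12 and 23, was at 1475, 1675 and 1555 CPM against 23.8, 21.1 and 20.3 CPM (6.17 ± 0.32, FDR 9.54e-17); the OVA level lay near the untreated 18.5 ± 1.05 CPM. The partner subunits had lower levels: Il12a (p35) was slightly lower with Jurkat cells (11.8 against 13.7 CPM, -0.21 ± 0.074) and Il23a (p19) stayed under 1 CPM (0.892 against 0.0502 CPM). The 2 chains of interleukin 27 were both higher, Il27 at 31.9 against 1.57 CPM and Ebi3 at 186 against 39.3 CPM. Tnf, a general inflammatory cytokine, reached 1398, 1484 and 1427 CPM against 61.6, 60.9 and 48.5 CPM (4.66 ± 0.10, FDR 1.59e-25), and Il1b 940.5, 997 and 922 CPM against 67.9, 57.8 and 47.9 CPM (4.04 ± 0.16). Lta (lymphotoxin alpha) was at 24.7 against 0.254 CPM (6.61 ± 0.22). The anti-inflammatory Il10 rose to only 8.32, 10.5 and 8.95 CPM from 0.342, 0.669 and 0.759 CPM (3.94 ± 0.22), and Tgfb1 did not pass (226 against 224 CPM, FDR 0.792).

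**Figure D3:**
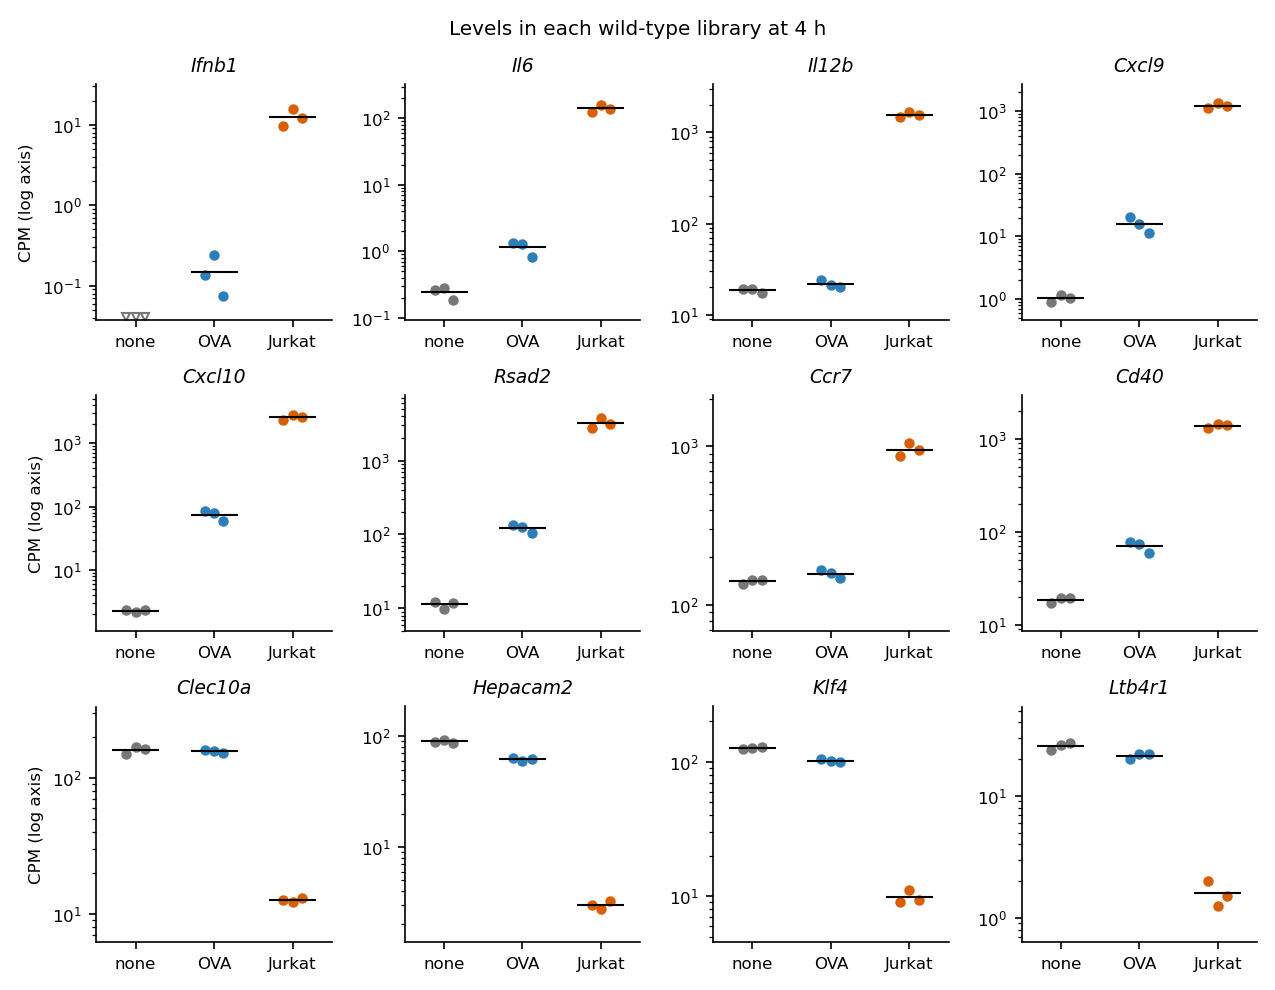
CPM on log axes of 12 genes in each wild-type library: untreated (grey, none), OVA 4 h (blue) and Jurkat 4 h (orange). No time is given in the labels of the untreated libraries, so the 4 h of the title holds for the treated ones only. Points are libraries, lines are means of 3, and open triangles mark libraries with no count; the Jurkat libraries lie above all others in the first 8 genes and below all others in the last 4.

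Chemokine genes rose with few exceptions: 20 of 24 were higher, all of these at 2-fold, and 1 was lower (median 3.29). Cxcl10 (mm10 chr5:92346639-92348889), a ligand of CXCR3 on T and NK cells, was at 2271, 2802 and 2556 CPM with Jurkat cells, 84.8, 78.6 and 59.1 CPM with OVA and 2.27 ± 0.0954 CPM in untreated cells (5.101 ± 0.44, FDR 1.31e-11). Its relatives Cxcl9 (1129, 1329 and 1192 against 20.7, 15.6 and 11.5 CPM, 6.26 ± 0.49) and Cxcl11 (61.2, 79.5 and 75.8 against 1.35, 0.669 and 0.704 CPM, 6.33 ± 0.29) followed. The third OVA library was the lowest OVA library in Cxcl9 and Cxcl10, and it did not come near the Jurkat libraries. Ccl22, which draws regulatory T cells, was the most abundant of the list at 4344, 4588 and 4512 CPM against 314, 289.7 and 251 CPM (3.98 ± 0.24). Ccl17, with the same receptor, was far lower at 27.5, 24.1 and 28.8 CPM but rose further (0.593, 0.626 and 0.519 CPM with OVA, 5.53 ± 0.30). The neutrophil attractants Cxcl1 (59.97 against 2.64 CPM, 4.52 ± 0.13) and Cxcl2 (391 against 15.3 CPM, 4.68 ± 0.12) and the T-cell attractant Ccl5 (713 against 153 CPM, 2.22 ± 0.068) were higher too. Of the 24, only Cxcl12, a stromal chemokine, was lower, at 7.42, 6.94 and 8.35 CPM against 12.6, 13.7 and 32.9 CPM (-1.399 ± 0.24); without the third OVA library its log2 fold change was -0.81, and Ccl6, named here after its values were seen, was then called lower too (-0.22).

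Maturation genes rose in nearly every case, 25 of 26, and all 25 by 2-fold or more (median 2.59). Cd40, the receptor for help from T cells, was at 1303, 1455 and 1392 CPM against 78.7, 73.8 and 59.5 CPM (4.29 ± 0.27, FDR 6.74e-15). The co-stimulatory ligands Cd80 (81.9 against 13.1 CPM, 2.64 ± 0.072) and Cd86 (573 against 91.3 CPM, 2.65 ± 0.072) rose by similar amounts, and the checkpoint ligand Cd274 (PD-L1) by more (611, 739 and 652 against 36.2, 35.6 and 34.2 CPM, 4.24 ± 0.17). Ccr7 (mm10 chr11:99144199-99155077) was at 874, 1045 and 944 CPM against 166, 160.2 and 148 CPM (2.59 ± 0.088, FDR 4.99e-21), with no overlap, as in 78% of all genes tested. Cd83, a surface marker of mature dendritic cells, was at 1619 against 217 CPM (2.900 ± 0.075). Lamp3, listed as a maturation marker, stayed under 1 CPM and did not pass (FDR 0.352).

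MHC class I genes were mostly higher and class II split by gene. All 24 class I genes tested, of 26 listed, were higher, but only 11 by 2-fold (median 0.99); under scaling to total counts 20 were higher, 5 of them by 2-fold, and 2 lower (median 0.60). Nlrc5, the transactivator of class I genes, was at 1124, 1307 and 1114 CPM against 197, 199 and 197 CPM (2.58 ± 0.10, FDR 2.57e-19), and the peptide transporter gene Tap1 at 1259, 1344 and 1342 CPM against 433, 439 and 431 CPM (1.599 ± 0.046). The immunoproteasome subunit Psmb9 (0.92 ± 0.045) and H2-K1 (2899 against 1419 CPM, 1.03 ± 0.037) rose by less; reads of H2 class I genes can be shared among near-identical copies. Sec22b and Sec61a1, both linked to cross-presentation, rose by 0.52 ± 0.038 and 0.15 ± 0.032, the latter becoming -0.24 under scaling to total counts. Of 18 class II genes, 9 were higher and 8 lower, with a median of 0.16 that became -0.23 under scaling to total counts. Chains that bind peptide were higher, as in H2-Eb1 (8657, 8623 and 9219 against 4537, 4693 and 4555 CPM, 0.94 ± 0.042), while the peptide editors H2-DMa (325 against 543 CPM, -0.74 ± 0.056) and H2-DMb1 (-0.65 ± 0.039) were lower. Ciita, the class II transactivator, did not pass (559, 607 and 567 against 561, 567 and 579.9 CPM, FDR 0.658). March1, the ubiquitin ligase that removes class II and CD86 from the surface, was lower in every library (47.2, 52.8 and 48.7 against 147, 143 and 139 CPM, -1.53 ± 0.072, FDR 1.04e-17).

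Receptors for apoptotic cells showed no common direction: 13 of 35 tested were higher (37.2% over all genes), 10 lower (40.3%) and 12 did not pass, with a median of 0.044 that became -0.34 under scaling to total counts. Timd4 (TIM-4), a phosphatidylserine receptor, was an exception, at 36.4, 38.9 and 36.8 CPM with Jurkat cells and 2.23, 2.396 and 2.0002 CPM with OVA (4.08 ± 0.20, FDR 2.17e-17). Axl, a receptor tyrosine kinase that recognises phosphatidylserine through Gas6, was at 925, 1111 and 968 CPM against 189.8, 198 and 166 CPM (2.44 ± 0.10), and its relative Mertk was higher by 0.98 ± 0.12 (35.8 against 18.1 CPM). Scarb1, a scavenger receptor for lipoproteins and apoptotic cells, was lower (45.2, 39.3 and 42.9 against 119.5, 123 and 125 CPM, -1.52 ± 0.054). Clec9a, which detects actin of dead cells, was higher by 0.48 ± 0.052, and Havcr2 (TIM-3) lower, with a log2 fold change of -0.78 ± 0.042. Among find-me and purine receptors, 10 of 20 were higher and 7 lower, with a median of 0.27 that became -0.12 under scaling to total counts. P2ry6, a receptor for UDP released by dying cells, was at 31.5, 27.7 and 31.5 CPM against 101, 99.4 and 99.1 CPM (-1.72 ± 0.048), whereas Adora2a, an adenosine receptor that dampens immune cells, was higher (131 against 31.02 CPM, 2.08 ± 0.059).

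Genes of LC3-associated phagocytosis moved in both directions. Over the 25 genes tested, 10 were higher and 12 lower (median -0.12), and under scaling to total counts 6 were higher and 17 lower (median -0.50). Oxidase subunits Cybb (2212, 2557 and 2173 against 1042, 997 and 929.7 CPM, 1.23 ± 0.066) and Ncf1 (1052, 1227 and 1060.0 against 472, 474 and 474 CPM, 1.24 ± 0.042), which make superoxide in the phagosome, were higher. Rubcn itself was lower, at 58.3, 62.3 and 56.1 CPM with Jurkat cells and 89.8, 90.6 and 92.2 CPM with OVA (-0.63 ± 0.048, FDR 1.23e-12). The conjugation genes Atg5 (-0.30 ± 0.052) and Atg7 (-0.69 ± 0.046) were lower and Atg16l1 higher by 0.12 ± 0.036, a value that became -0.27 under scaling to total counts. Sqstm1 (p62), an autophagy cargo receptor, stood apart at 2274, 2246 and 2257 CPM against 350.2, 359 and 336 CPM (2.697 ± 0.052, FDR 1.99e-26). Lysosomal genes moved little: 18 of 34 were higher and 11 lower, with a median of 0.17 that became -0.22 under scaling to total counts. Only Lamp2, a lysosomal membrane protein (1.01 ± 0.091), rose by 2-fold. Ctsk, a cathepsin, was called lower by 2-fold, but that call rested on the third OVA library (8.64, 8.27 and 53.9 CPM against 11.3, 9.81 and 12.9 CPM with Jurkat cells), and without it the log2 fold change was 0.42.

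Cholesterol synthesis genes were higher, in 19 of 25 cases with 4 lower (median 0.76), and under scaling to total counts in 15 with 6 lower (median 0.37). Idi1, an isomerase of the isoprenoid steps, was at 71.9, 92.1 and 79.5 CPM against 26.6, 24.9 and 22.5 CPM (1.72 ± 0.10, FDR 3.24e-15), with no overlap, as in 78% of all genes tested. The cholesterol exporter Abca1, a target of LXR receptors that respond to oxysterols, did not pass (110.2, 114 and 99.97 against 94.8, 93.4 and 98.05 CPM, FDR 0.154). In a fit of only the groups compared, Abca1 passed (0.18, FDR 0.0039), and under scaling to total counts its log2 fold change was -0.21. The LXR list as a whole had 8 of 20 higher and 5 lower, with a median of 0.12 (-0.27 under scaling to total counts).

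Enzymes of lipid mediators parted by gene, and of 16 prostaglandin and leukotriene genes 4 were higher and 6 lower. Ptgs2 (COX-2), which starts prostaglandin synthesis, was at 248, 310.4 and 288 CPM against 7.001, 6.39 and 4.704 CPM (5.56 ± 0.16, FDR 1.76e-22). The leukotriene genes Alox5ap (107, 107 and 111 against 404, 437 and 434 CPM, -1.97 ± 0.044) and Alox5 (14.97 against 38.02 CPM, -1.35 ± 0.066) were lower in all 3 Jurkat libraries, as was Ltb4r1, the leukotriene B4 receptor, named below. Of 13 itaconate, arginine and tryptophan enzyme genes tested, 10 were higher and 1 lower (median 1.11). Under scaling to total counts 10 were higher and 2 lower (median 0.725). Nos2, which makes nitric oxide, went from 0.844, 0.626 and 0.815 CPM with OVA to 61.1, 75.3 and 66.2 CPM with Jurkat cells (6.46 ± 0.28, FDR 1.66e-18). Acod1, which makes itaconate, was at 789, 951 and 801 CPM against 119, 117 and 83.5 CPM (2.99 ± 0.30); untreated cells held 1.53 ± 0.209 CPM, so both treatments exceeded them. Glycolysis genes were mixed, 17 of 30 higher and 11 lower, with a median of 0.31 that became -0.081 under scaling to total counts. Pfkp, a phosphofructokinase, was higher (580.4 against 171 CPM, 1.76 ± 0.05), and Car9, a common marker of hypoxia, was lower (2.45 against 7.21 CPM, -1.55 ± 0.10).

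Stress genes were mostly higher. In the integrated stress and unfolded protein response, 25 of 28 were higher and 3 lower (median 0.74), and under scaling to total counts 17 were higher and 10 lower (median 0.36). In that list were Atf3, a stress-induced repressor, at 399, 438 and 418 CPM against 79.9, 83.6 and 71.8 CPM (2.42 ± 0.084) and Chac1, a glutathione-degrading target of ATF4, at 6.18 against 0.868 CPM (2.84 ± 0.20). Of 22 NRF2 genes, 19 were higher and 3 lower (median 1.03, and 0.64 under scaling to total counts), among them the cystine importer Slc7a11 (96.9, 90.5 and 99.6 against 20.6, 19.5 and 13.9 CPM, 2.42 ± 0.13). Heat shock genes were higher in 12 of 16 cases (median 0.78), and under scaling to total counts in 9, with 4 lower (median 0.40). Hspa1a, an inducible HSP70, was at 50.03, 82.6 and 53.95 CPM with Jurkat cells, highest in the second library, against 2.03, 2.31 and 2.07 CPM with OVA (4.86 ± 0.16); it shares reads with its copy Hspa1b.

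Early-response factors went both ways: of 23, 13 were higher and 6 lower, and the median of 0.31 became -0.076 under scaling to total counts. Nr4a3, an orphan nuclear receptor, was at 1395, 1729 and 1527 CPM against 33.5, 29.03 and 25.02 CPM (5.74 ± 0.28, FDR 2.37e-17). Klf4 (mm10 chr4:55527137-55532475), a factor of monocyte and type 2 dendritic cell development, was at 9.05, 11.03 and 9.402 CPM against 104, 101 and 101 CPM (-3.38 ± 0.055, FDR 7.27e-28), and Klf2, a quiescence factor, at 7.32, 5.53 and 7.24 CPM against 45.8, 45.4 and 42.9 CPM (-2.73 ± 0.092). Among 26 dendritic cell transcription factors, 20 were higher and 6 lower (13 and 9 under scaling to total counts); Cebpa, a myeloid lineage factor, showed the steepest fall (15.9, 13.3 and 15.9 against 73.6, 72.2 and 75.6 CPM, -2.29 ± 0.059).

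Survival genes changed on both sides and proliferation genes fell. Bcl2l1 (BCL-XL, anti-apoptotic) was at 259, 275 and 282 CPM against 23.1, 25.5 and 22.04 CPM (3.53 ± 0.091), and the pro-apoptotic Bcl2l11 (BIM) at 298, 328 and 296 CPM against 51.8, 48.2 and 49.5 CPM (2.62 ± 0.061), while another pro-apoptotic gene, Bmf, fell (12.1, 10.4 and 11.6 against 59.7, 60.03 and 61.1 CPM, -2.403 ± 0.054). Of 29 cell cycle genes, 25 were lower (40.3% over all genes) and 4 higher, with a median of -0.53. Mki67, a proliferation marker, was at 459.7, 463 and 446 CPM against 656, 635 and 616 CPM (-0.48 ± 0.04). The 2 that rose by 2-fold were Cdkn1a (p21, a brake of the cycle; 1659.7, 1689.6 and 1766 against 162, 159.5 and 143 CPM, 3.46 ± 0.12) and Ccnd2 (cyclin D2; 1616 against 166 CPM, 3.28 ± 0.093). In the inflammasome list 10 of 15 were higher and 3 lower: Casp4, the receptor protease for bacterial lipopolysaccharide, rose (243 against 22.6 CPM, 3.43 ± 0.12) and the adaptor Pycard fell (48.4 against 118 CPM, -1.28 ± 0.05).

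Markers of the dendritic cell types moved in different ways, and the defining markers of each were present in both groups. Type 1 conventional markers were lower in 9 of 12 cases and higher in 3 (median -0.85). Type 2 markers were lower in 6 of 11 and higher in 3, with log2 fold changes from -3.64 to 2.82. The type 2 median was -0.84, but -0.46 without the third OVA library and -0.54 without the second Jurkat library (type 1, -0.84 in both cases). Of the plasmacytoid markers, 8 of 14 were higher and 5 lower (median 0.20, and -0.19 under scaling to total counts). Summed over the list, type 1 markers came to 2253 to 2406 CPM with Jurkat cells and 3375 to 3393 CPM with OVA, and plasmacytoid markers to 3775 to 4571 and 3286 to 3345 CPM. Ly6d, 1 of the 2 plasmacytoid markers called 2-fold higher, held a mean of 629 CPM of the Jurkat sum. These sums were not taken under scaling to total counts. Xcr1, a receptor of type 1 cells, was higher (159.6 against 101 CPM, 0.66 ± 0.054), while Batf3, their lineage factor, was lower (7.21 against 20.3 CPM, -1.49 ± 0.10). The lectins Cd209a (13.96, 12.7 and 13.8 against 119, 118 and 118 CPM, -3.13 ± 0.065) and Clec10a (12.6, 12.3 and 13.04 against 161, 159.6 and 152 CPM, -3.64 ± 0.084) of type 2 cells fell furthest. Siglech of plasmacytoid cells did not pass (705, 791 and 655 against 739, 703 and 726 CPM, FDR 0.864), and Flt3, the receptor of the culture's growth factor, was lower (232, 229.5 and 228 against 484, 484 and 507 CPM, -1.096 ± 0.035). Summed monocyte and macrophage markers were at 4756 to 5165 CPM with Jurkat cells and 5694 to 6111 CPM with OVA. Of the 12 genes in that list, 5 were higher and 4 lower (median 0.098, and -0.29 under scaling to total counts). Their log2 fold changes ran from -2.11 to 2.09, and Ccr2 (-1.32 ± 0.074), a chemokine receptor of monocytes, was among those that fell. Kdr, listed as an endothelial marker (VEGF receptor 2), rose to 996, 1228 and 999 CPM from 58.7, 57.2 and 60.2 CPM (4.19 ± 0.23), while of the other markers of that list Cdh5 stood at 34.8 against 22.7 CPM and Tie1 and Emcn at under 1 CPM on average in both groups.

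The 10 largest falls named by rule were genes at 12.7 to 157 CPM with OVA and under 13 CPM with Jurkat cells. Hepacam2 was at 2.96, 2.75 and 3.24 CPM with Jurkat cells, 64.1, 59.3 and 62.4 CPM with OVA and 89.7 ± 2.69 CPM in untreated cells (-4.37 ± 0.075, FDR 2.25e-27). Hpgd, which inactivates prostaglandins, followed (4.25, 3.797 and 4.33 against 87.2, 83.7 and 78.4 CPM, -4.33 ± 0.10). Cd300lg (-4.26 ± 0.077), Lpar5 (-4.08 ± 0.10), a receptor for lysophosphatidic acid, Kif5a (-4.07 ± 0.10), a kinesin, Dpep3 (-4.03 ± 0.18), Card10 (-3.83 ± 0.12), Skint3 (-3.77 ± 0.15), Ltb4r1 (1.99, 1.26 and 1.502 against 20.2, 22.1 and 21.9 CPM, -3.74 ± 0.11) and Clec10a completed them. None of the 10 was 2-fold different between Jurkat cells and OVA at 30 min. Over all genes tested, 2.67% were then called 2-fold higher and 0.108% 2-fold lower, so that count does not set the 10 apart. The widest early difference among them was that of Lpar5 (-0.38 ± 0.063).

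Among broad families, genes named Zfp, many of them zinc finger repressors, were lower in 219 of 344 cases and higher in 61 (median -0.45), against 40.3% lower and 37.2% higher over all genes. Cytoplasmic ribosomal proteins were lower in 52 of 81 cases, with a median of -0.16 that was -0.091 under DESeq2 size factors and -0.55, with 74 lower, under scaling to total counts. Proteasome subunits were higher in 40 of 47 cases (median 0.48), but under scaling to total counts in 23, with 11 lower (median 0.09). Rab GTPases were higher in 26 of 54 cases and oxidative phosphorylation subunits in 27 of 78, and both medians (0.21 and 0.027) turned negative under scaling to total counts (-0.17 and -0.36).

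Among genes with at least 5 CPM and no overlap between groups, predicted genes left out, the 10 largest fitted rises included several with no OVA count, whose order depends on the prior count of the fit. Of these 10, 8 were called higher at 30 min, the exceptions being Ifna5 and Ifna2. Myo7b was at 44.5, 32.4 and 45.4 CPM with Jurkat cells and had no count with OVA, at least 1970-fold higher over a floor of 3 counts, and it was at 11.99 ± 0.555 CPM with Jurkat cells at 30 min. Rpl10l (8.13, 5.89 and 7.72 CPM) was at least 350-fold higher. Lef1 (41.4, 33.5 and 40.3 against 0.137, 0.259 and 0.0185 CPM, 8.15 ± 0.24) and Zap70 (39.7, 26.8 and 39.2 against 0.525, 0.5396 and 0.611 CPM, 5.97 ± 0.19) are genes of the T lineage, to which Jurkat cells belong. The T-lineage list as a whole had 24 of 28 tested genes (of 31 listed) higher and 4 lower, 18 of them higher by 2-fold, with a median of 1.83. The other rises were Acta1 (8.07 ± 0.25), D1Pas1, Six6, Aldoart2 and Uba1y. Over 13 T-lineage genes that were under 1 CPM in untreated cells of both genotypes, the summed level was 119, 89.6 and 118 CPM with Jurkat cells at 4 h, 42.4 ± 1.14 CPM at 30 min (SD, n = 3), 3.92, 3.50 and 3.07 CPM with OVA and 3.61 ± 0.063 CPM in untreated cells. How far reads of human RNA were counted on mouse genes was not tested.

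The 30 min libraries divide the largest rises into genes already higher and genes not yet called higher. Of the 1029 genes 4-fold higher at 4 h, 396 (38.5%) were also called higher with Jurkat cells at 30 min; these are 22.4% of the 1765 genes so called, which in turn are 11.9% of all genes tested. Those 396 genes took 1.09% ± 0.0198 of all counts with Jurkat cells at 4 h and 0.164% ± 0.00914 with OVA. The median of their ratios of the Jurkat level at 4 h to that at 30 min was 3.03. Most were at low levels, 299 of them under 5 CPM with Jurkat cells at 4 h. The 13 T-lineage genes, 8 of them under 5 CPM, had a median ratio of 2.26. The other 633 of the 1029 genes (61.5%) were not called higher at 30 min. Among the 10 largest rises of this late set (at least 5 CPM, no overlap between groups) were Ifna5, Ifna2, Il6, Lta, Nos2, Ifnb1, Cxcl11, Serpina3f (59.3 against 0.747 CPM, 6.32 ± 0.27), a serine protease inhibitor, and Cxcl9. Without all genes called higher at 30 min, 9860 genes were called at 4 h. The medians of the members left were then 3.11 for 44 interferon-stimulated genes, 2.71 for 23 cytokines and 2.63 for 23 maturation genes. Medians of other lists moved further: chemokines to 2.81 (18 left), SOCS and DUSP genes to 0.95 (10 left), the integrated stress list to 0.49 (16 left), T-lineage genes to 0.53 (10 left) and early-response factors to -0.17 (6 left).

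**Figure D4:**
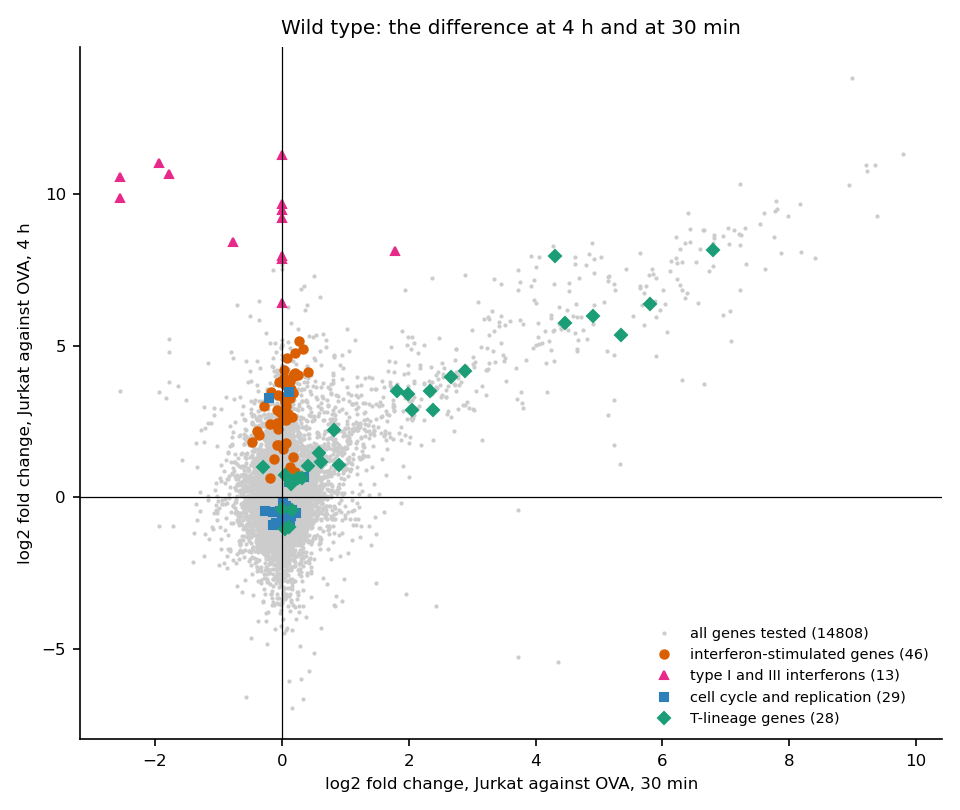
Log2 fold change of Jurkat cells against OVA in wild-type cells at 30 min (horizontal) and 4 h (vertical) for 14808 genes, with members of 4 lists marked. Interferon-stimulated genes rise along the vertical axis only. Of 28 T-lineage genes, 18 were called higher and 1 lower at 30 min, and 24 higher and 4 lower at 4 h. Only part of that list lies along a rising band on the right. Fitted values of interferon genes with no OVA count depend on the prior count and are not bounds.

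The difference between Jurkat cells and OVA itself changed between 30 min and 4 h in 9837 genes (66.4%; 4494 or 30.3% upward and 5343 or 36.1% downward), by a test over 12 libraries. At 30 min alone 3591 genes (24.3%) were called, 396 of them (2.67% of all) higher and 16 (0.108%) lower by 2-fold. All 46 interferon-stimulated genes and 25 of 26 maturation genes changed upward with time, and 24 of 29 cell cycle genes downward. The 4 genes with the smallest p were all falls: Lbh, a transcription cofactor, was at 21.5, 20.3 and 21.96 CPM with Jurkat cells against 236, 231 and 240.0 CPM with OVA at 4 h (-3.47 ± 0.04), with no difference called at 30 min (0.0044 ± 0.034, FDR 0.947), and the change was -3.48 ± 0.052 (FDR 4.63e-28). Rnf144b changed by -3.21 ± 0.062, Dna2, a nuclease of DNA replication, by -2.56 ± 0.051 and Klf4 by -3.52 ± 0.071. Early-response genes had no common course: 17 of 23 were higher with Jurkat cells at 30 min (11.9% over all genes) and 13 at 4 h. By the test of the change, 8 moved upward, 9 downward and 6 did not pass. Egr1, higher at 30 min by 1.88 ± 0.10, did not pass at 4 h (51.2, 47.7 and 46.8 against 61.003, 54.3 and 50.02 CPM, -0.18 ± 0.093, FDR 0.0806). Nr4a3, in contrast, was at 23.8 CPM with Jurkat cells at 30 min and 1550 CPM at 4 h.

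Most of the 4 h difference was also present in Rubcn KO cells, a comparison that shares no library with WT. There 11313 genes (76.4%) were called. Of the 11471 WT calls, 10447 (91.1%) were called in KO, which is 92.3% of the KO calls, and 10431 of these had the same direction. Across genes, which are not independent replicates, log2 fold changes of the genotypes had a Pearson correlation of 0.94 and a Spearman correlation of 0.93. The difference between genotypes was called in 375 genes (2.53%), 181 (1.22%) with a higher log2 fold change in WT and 194 (1.31%) with a lower one. Without 1 of the 12 libraries that count ranged from 198 to 358, and it was 209, 198 and 219 without the first, the second and the third KO OVA library, 221 without the second WT OVA library and 226 without the third KO Jurkat library.

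Among the genes that differed between genotypes were neutrophil chemokines and early-response factors with a smaller difference in WT. Cxcl1 was higher with Jurkat cells by 4.52 ± 0.13 in WT and 5.597 ± 0.13 in KO (difference -1.08 ± 0.21, FDR 0.0041), and Cxcl2 by 4.68 ± 0.12 and 5.75 ± 0.13 (difference -1.07 ± 0.17, FDR 5.02e-04). Mean levels of Cxcl1 with OVA were 2.64 CPM in WT and 2.13 ± 0.466 CPM in KO, and with Jurkat cells 59.97 CPM and 105 ± 5.69 CPM. Fosb, an AP-1 subunit, differed most among the 4 genes of smallest p: 1.24 ± 0.11 in WT and 2.93 ± 0.13 in KO (difference -1.69 ± 0.17, FDR 3.12e-06), with WT levels of 13.4, 11.1 and 11.96 CPM against 5.97, 4.9 and 4.61 CPM. Egr1 (difference -1.22 ± 0.13) and H2-Eb2, a class II beta chain (1.798 ± 0.10 in WT, 2.95 ± 0.10 in KO, difference -1.16 ± 0.14), had the same sign, and Mid1, a ubiquitin ligase of microtubules, the opposite one (1.68 ± 0.076 in WT, 0.82 ± 0.063 in KO, difference 0.86 ± 0.10, FDR 9.04e-06). Ifnb1 (6.39 ± 0.33 and 6.55 ± 0.47), Il6 (6.97 ± 0.30 and 7.46 ± 0.33), Il12b (6.17 ± 0.32 and 6.25 ± 0.32) and Cd40 (4.29 ± 0.27 and 5.04 ± 0.28) did not pass the test of the difference (FDR 0.9503, 0.787, 0.958 and 0.265), which does not show that the genotypes were alike. The T-lineage sum stood at 74.5 ± 9.6 CPM in KO against 109 ± 16.7 CPM in WT Jurkat libraries at 4 h (SD, n = 3); its part in these genotype differences was not tested.

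**Figure D5:**
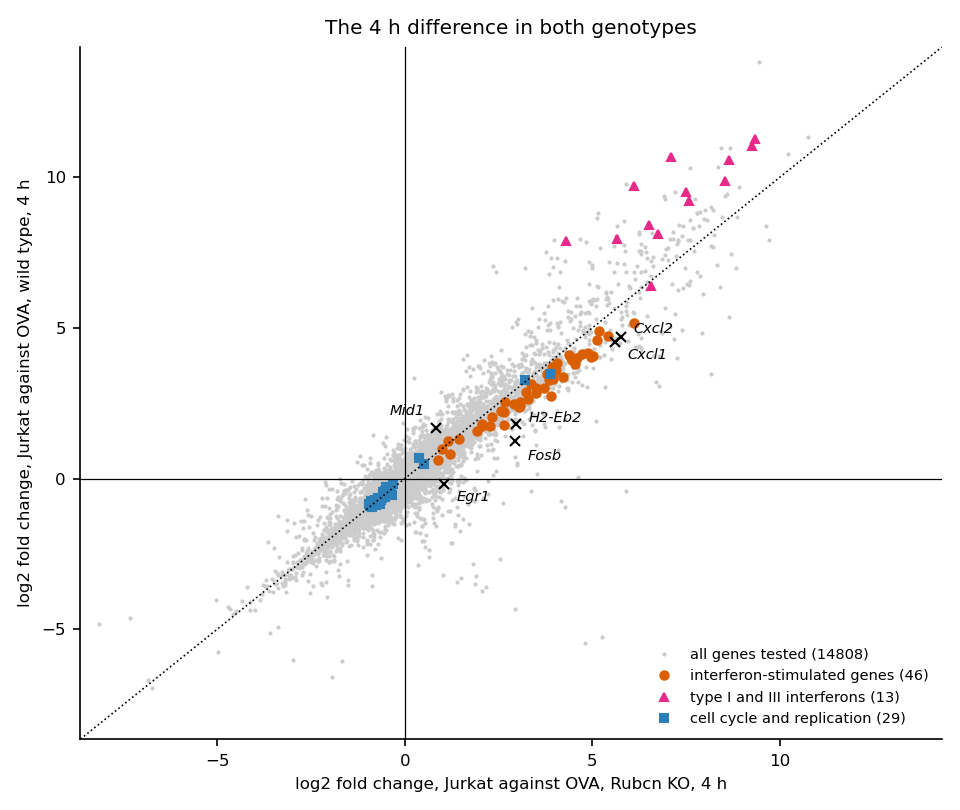
Log2 fold change of Jurkat cells against OVA at 4 h in Rubcn KO (horizontal) and wild-type cells (vertical) for 14808 genes; the dotted line marks equality. Most genes lie along the line, interferon-stimulated genes lie mostly under it, and crosses mark 6 genes whose difference between genotypes passed the test.

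Both arms can be set against untreated cells, whose labels give no time. Any part of time in culture in these differences was not tested. Against untreated WT cells, 3484 genes (23.5%) were called with OVA at 4 h and 11778 (79.5%) with Jurkat cells; these comparisons share the untreated libraries. Interferon-stimulated genes had medians of 0.93 with OVA and 3.87 with Jurkat cells, chemokines 1.21 and 4.80, and maturation genes 0.47 and 2.96. Cxcl10 was higher than untreated by 5.03 ± 0.54 with OVA and 10.13 ± 0.59 with Jurkat cells, and Acod1 by 6.12 ± 0.44 and 9.11 ± 0.45. Il12b was 0.23 ± 0.29 (FDR 0.624) and 6.403 ± 0.32, and Ccr7 0.16 ± 0.084 (FDR 0.179) and 2.75 ± 0.089, so for these genes the OVA arm did not pass against untreated cells. Of the 301 genes 4-fold lower with Jurkat cells than with OVA, 281 (93.4%) were below untreated cells in the Jurkat arm. In the OVA arm 154 of them (51.2%) were below and 22 (7.31%) above untreated cells. The same Jurkat and OVA libraries chose the 301 genes, so these shares are partly set by that choice and support nothing by themselves. Over all 14808 genes, 6017 were below untreated cells with Jurkat cells, and with OVA 1727 were below and 1757 above. Klf4 and Hepacam2 fell further in the Jurkat arm: Klf4 was -0.31 ± 0.044 with OVA and -3.69 ± 0.055 with Jurkat cells, and Hepacam2 -0.53 ± 0.05 and -4.91 ± 0.074.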

How the data were processed

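Wild-type dendritic cells given apoptotic Jurkat cells or OVA for 4 h were profiled by RNA-seq. The deposited table holds whole-number counts per gene as the authors made them, with no normalization seen in the values, on the mm10 build. The submitters' processing notes name STAR 2.5, Subread, featureCounts 1.5.0-p1 and DESeq2 without giving their roles, and whether counting used strand is not given in the sources used here. Genes were filtered by group with edgeR 4.0.16 (R 4.3.3), scaled by TMM and fitted in 1 quasi-likelihood model of 30 libraries in 10 groups. Contrasts were tested two-sided with Benjamini-Hochberg adjusted p (FDR) called under 0.05. The tested 14808 genes held 99.99% of counts. The script was tested on simulated data. Reported errors of log2 fold changes are SE. Counting error alone underlies the floor of 3 counts. The members and lists were chosen with earlier results of these data known. Named genes were the 10 largest rises, falls and rises not called at 30 min (at least 5 CPM, no overlap between groups), up to 4 2-fold members of each list by p, members whose role is explained, and up to 4 genes for each difference test. Predicted genes and symbols with more than 1 interval (396) were passed over. Some genes that these rules pick are not reported here. Alternatives were DESeq2 1.42.0, other scalings and filters, fewer libraries or groups, gene sets left out and a replicate block. Replicate numbers are not said to mark shared animals, and same-numbered libraries did not deviate together (correlations of -0.0703, 0.0155 and 0.064). Promoter sequences are from RefSeq, GRCm38.p6.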

Additional observations from a re-analysis of the deposited data

Results flagged for a closer look

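The difference between Jurkat cells and OVA at 4 h itself differed between genotypes in 375 genes, and that in WT differed between 30 min and 4 h in 9837 genes, both by the test of the difference in edgeR. Negative values below mean a lower log2 fold change in WT than in Rubcn KO cells. Among genes named above, Fosb differed by -1.69, Egr1 by -1.22, H2-Eb2 by -1.16, Cxcl1 by -1.08 and Cxcl2 by -1.07. Smaller differences of that sign were found for Slc7a11 (-0.666), Nfkbia (-0.464), Adora2a (-0.384), Ccl5 (-0.339), Bmf (-0.278), Lbh (-0.276), Irf9 (-0.272) and H2-K1 (-0.228). Mid1 (0.865) and Havcr2 (0.328) had the opposite sign. Between 30 min and 4 h the log2 fold change in WT moved by -3.52 in Klf4, -3.48 in Lbh, -3.21 in Rnf144b and -2.56 in Dna2.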

How the results depend on the processing

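The main count of 11471 genes was 11119 to 11234 without 1 of its 6 libraries, 11371 with DESeq2 size factors, 12203 with total counts, 11806 with no filter, 9013 with at least 5 CPM in 3 libraries, 11041 with only the groups compared, 11179 with DESeq2, 9860 without genes higher at 30 min and 11445 without the T-lineage list. The replicate block gave 11494, and the numbers do not pair the libraries. Scaling to total counts gave 3238 higher and 8965 lower genes (26.5% higher, against 53.0% with DESeq2 and 48.0% as reported), and 1558 against 3180 at 2-fold; the stricter filter gave 1182 and 946. Without 1 library, the count was 2596 to 3520 at 30 min, 9552 to 9706 for the time difference, 10932 to 11049 in KO and 198 to 358 for the genotype difference. The genotype count of 375 was 458 with total counts (22.9% higher) and 544 with only the groups compared (21.5% higher); the cause was not tested. Against untreated cells it was 11453 to 11623 with Jurkat cells and 2594 to 3400 with OVA. Without the third OVA library Ctsk, Emcn and Tie1 changed sign, to log2 fold changes of 0.42, 2.11 and 0.015 (without 1 library -1.49 to 0.42, -7.58 to 2.11 and -1.90 to 0.015); the fit then has fewer samples. Under total counts Abca1 (-0.21), Atg16l1 (-0.27), Ciita (-0.37), Sec61a1 (-0.24), Tgfb1 (-0.37) and Tmem173 (-0.021) also changed sign, and with no filter Ciita (-0.015) and Tgfb1 (-0.022). Chuk and Siglech, near 0, turned positive with DESeq2 and its size factors (0.067 and 0.061), the stricter filter (0.050 and 0.043) and without genes higher at 30 min (0.034 and 0.027). Without 1 library Chuk ranged from -0.055 to 0.028, Siglech from -0.092 to 0.048, Ciita from -0.020 to 0.042 and Tgfb1 from -0.0014 to 0.028. Of 2159 values of named genes, 2098 kept direction and side of the threshold. DESeq2 called 10 of 13 interferon genes; Ifna5 was among the 3 that did not pass (10.91, adjusted p 0.114). The T-lineage sum was 86.6 CPM with total counts. With 41448924 to 51642601 counts a library, 1015 of the 2190 2-fold rises had an OVA mean under 1 CPM, where fold changes rest on few counts.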
